A study of Mus musculus with 47 samples.

Results

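The cytosolic ribosomal protein genes encode the proteins of the ribosome, and here they were followed in the cerebral cortex of 6-month-old mice of 6 genotypes. They were chosen by name (Rpl, Rplp, Rps and Rpsa followed by a number or letter as in the mouse nomenclature, without rows named as pseudogenes and without the Rps6 kinases) and by a count of at least 10 in at least 7 libraries. Of 48795 genes in the files, 84 had such a name and 82 passed the count rule, 50 of the large and 32 of the small subunit. Rpl10l, listed at 0 in every library, and Rpl39l, with at most 3 counts, did not pass. In the GENCODE M21 annotation of GRCm38, 82 of the 84 are protein coding, while Rps4l and Rpl6l, both among the 82 that passed, are annotated as pseudogenes despite their names.

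Each ribosome carries a copy of nearly every one of these proteins, so the cell makes them in closely matched amounts, and their mRNAs are among the most abundant in most tissues. Many of the mRNAs start with a run of pyrimidines, the 5′ TOP motif, through which the mTOR kinase and the RNA-binding protein Larp1 control their translation; transcript levels do not report that control. The genes have given rise to many processed pseudogenes, copies of the spliced mRNA put back into the genome, which bears on how sequencing reads can be assigned to them.

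The mice were Q140 x Ccdc82-/- (7), Q140 x Ccdc82+/- (8), Q140 (8), Ccdc82-/- (8), Ccdc82+/- (8) and wild type (WT, 8), on a C57BL background, 23 females and 24 males in all. Q140 mice model Huntington's disease through a long CAG tract knocked into the mouse huntingtin gene, Htt, and all 23 of them here were heterozygous for it, so a normal copy of Htt remained. Ccdc82 encodes a coiled-coil protein, and +/- and -/- mice have lost 1 or 2 copies. Libraries of mRNA were made with a stranded kit from extracted RNA, 1 library per mouse, so that p-values measure the spread between mice. How the Ccdc82 allele was made, and which bases it lacks, is not in the labels. Library totals were 43554594 to 61370843 counts with a median of 50473683. Ccdc82 averaged 2.99 FPKM (fragments per kilobase of gene length and per library depth) in Q140 x Ccdc82-/-, 6.17 in Q140 x Ccdc82+/-, 8.48 in Q140, 2.87 in Ccdc82-/-, 5.90 in Ccdc82+/- and 8.76 in WT, so transcript from the locus remained in the -/- mice, whose 15 values (2.48 to 3.46 FPKM) all lay below those of the other 32 mice. The tissue label was checked on its markers: Slc17a7, the vesicular glutamate transporter of cortical excitatory neurons, had a median of 226 FPKM, and the cerebellar marker Pcp2 a median of 0.

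As deposited, the 82 genes took a small share of the reads. They held 0.239 to 0.277% of a library's counts (median 0.257%), and 275 rows named as ribosomal protein pseudogenes held another 0.0940 to 0.110% (median 0.0999%), 73 of them passing the same count rule. Mean FPKM in WT ran 1335-fold over the 82 genes, with quartiles at 3.56, 7.19 and 24.5. Only 4 genes had a WT mean above 100 FPKM and 47 lay below 10. For scale, Eef2, the elongation factor that moves the ribosome along the mRNA, had 332 ± 8.5 FPKM in WT (SD, n = 8) and Rack1, a WD-repeat protein of the small subunit that bears another type of name, had 19.3 ± 0.773.

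The 4 levels above 100 FPKM were those of Rplp1, an acidic protein of the stalk that recruits elongation factors, at 250.4 ± 24.7 FPKM in WT; Rpl4, a core protein lining the exit tunnel, at 240.1 ± 8.05; Rpl8, close to the peptidyl transferase centre, at 182 ± 8.13; and Rps15, in the head of the small subunit, at 159 ± 10.5 (SD, n = 8 each). The lowest were Rpl3l, a muscle form of Rpl3, at 0.187 ± 0.0537, Rps13 at 1.15 ± 0.148, Rps16 at 1.48 ± 0.211, Rps27 at 1.62 ± 0.206 and Rpl24 at 1.77 ± 0.24. Proteins that meet in 1 ribosomal structure were therefore recorded at unlike levels. In the stalk, Rplp1 stood above its base protein Rplp0 (40.1 ± 1.08 FPKM) and above its partner Rplp2 (8.26 ± 0.551).

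Members known for work outside the ribosome, or for a place at its functional sites, were recorded at 2.16 to 56.7 FPKM, apart from the stalk proteins above. Rpl5 and Rpl11, which form a complex with 5S rRNA that binds the p53 regulator Mdm2, had 5.51 ± 0.267 and 2.16 ± 0.159 FPKM in WT. Rps6, whose protein is phosphorylated by the S6 kinases downstream of mTOR, had 4.06 ± 0.412, and Rps27a, which is made as a fusion with ubiquitin, had 2.49 ± 0.201. Rpsa, also known as the laminin receptor, had 28.9 ± 1.61, and Rpl13a, known in human cells for silencing inflammatory mRNAs when released from the ribosome, had 23.3 ± 1.28. Rps19 and Rps14, the human genes of which are tied to Diamond-Blackfan anaemia and to a myelodysplastic syndrome with a chromosome deletion, had 3.39 ± 0.315 and 56.7 ± 4.42. Rpl10, the last large-subunit protein to join, had 3.45 ± 0.234, Rpl38, loss of which gives axial skeleton defects in mice, 7.12 ± 0.433, and Rpl41, the smallest protein of the ribosome, 41.1 ± 4.41 (SD, n = 8 for each).

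These levels ran with how much of a gene's coding sequence is repeated elsewhere in the annotation. For the 80 members with an annotated coding sequence, every stretch of 50 bases in the longest coding sequence was looked up on both strands of all GENCODE M21 transcripts of other genes. The median member had 89.8% of its stretches in another gene, 77 of 80 shared at least 1 with an annotated pseudogene, and Rpl7a shared stretches with 123 other genes. The 7 members with under 25% of stretches shared had a median of 41.1 FPKM in WT (0.187 to 240.1), the 16 members from 25 to under 75% a median of 35.3 (3.39 to 250.4), and the 57 members with at least 75% a median of 5.47 (1.15 to 58.1). Spearman's rho between the share and the WT level was -0.59 over 80 genes, and -0.61 with stretches of 100 bases; the genes share their libraries, and this is a description without a test. The sources used here do not say how reads that fit several places were counted, and the part of shared sequence in the levels was not tested. Levels of different members are therefore set side by side only as recorded, while each gene is compared with itself across genotypes.

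The start of the coding sequence of 3 members is printed as an example of high and low sharing. Each line holds coding bases 1 to 240 of the transcript with the longest coding sequence. Capitals mark bases inside a 50-base stretch found exactly in another annotated gene. All of Rps6 (chr4:86854660-86857412, minus strand, GRCm38) lies in capitals and shares stretches with 14 other genes. Rpl4 (chr9:64173375-64178666, plus strand) has 20.3% of its stretches in 1 other gene, and Rps3 (chr7:99477896-99483738, minus strand), an RNA-binding protein at the mRNA entry site, has 8.09% in 1 other gene, all of them after the bases printed. Rps6 had 4.06 FPKM in WT, against 240.1 for Rpl4 and 31.6 for Rps3. Other members departed from this order: Rpl29, with 90.3% of stretches shared, had 50.8 FPKM, and Rpl3l, with 0% shared, had 0.187.
Rps6: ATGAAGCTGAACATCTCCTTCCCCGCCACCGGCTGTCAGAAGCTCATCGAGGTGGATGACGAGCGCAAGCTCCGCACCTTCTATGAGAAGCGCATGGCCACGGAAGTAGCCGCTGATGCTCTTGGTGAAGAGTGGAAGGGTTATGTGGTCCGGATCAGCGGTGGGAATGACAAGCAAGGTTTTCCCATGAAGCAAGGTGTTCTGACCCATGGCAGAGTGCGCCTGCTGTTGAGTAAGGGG
Rpl4: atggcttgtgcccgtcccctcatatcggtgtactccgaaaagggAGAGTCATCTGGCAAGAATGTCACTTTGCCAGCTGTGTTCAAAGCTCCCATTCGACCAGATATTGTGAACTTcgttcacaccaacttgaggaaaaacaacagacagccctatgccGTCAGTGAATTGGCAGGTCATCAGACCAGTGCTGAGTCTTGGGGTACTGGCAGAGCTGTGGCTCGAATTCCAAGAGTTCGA
Rps3: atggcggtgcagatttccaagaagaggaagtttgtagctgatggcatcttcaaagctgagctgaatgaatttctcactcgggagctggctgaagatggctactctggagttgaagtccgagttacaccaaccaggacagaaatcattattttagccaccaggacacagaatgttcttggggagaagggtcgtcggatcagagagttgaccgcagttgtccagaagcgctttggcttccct

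**Figure D1:**
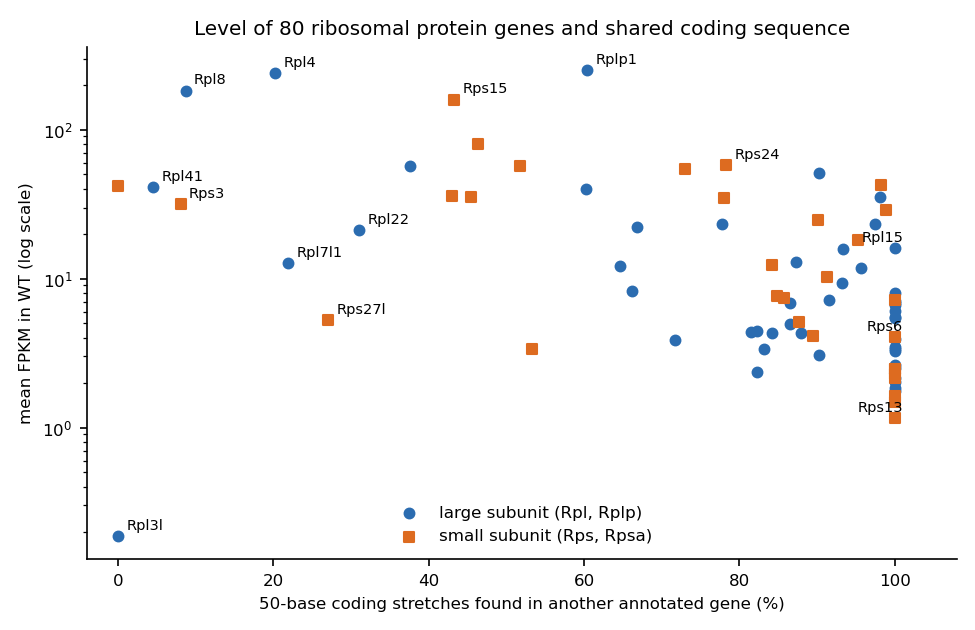
Mean FPKM in 8 WT mice (y axis, log scale) against the percentage of 50-base coding stretches found in another annotated gene (x axis) for 80 members, circles for the large and squares for the small subunit. The members with at least 75% shared have a median of 5.47 FPKM; Rpl4, Rpl8, Rps15 and Rplp1, the 4 members above 100 FPKM, have 8.73 to 60.4% shared.

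Several members come as a gene and a close relative. Rpl22l1, a paralog that takes the place of Rpl22 in some ribosomes, had 4.31 ± 0.385 FPKM in WT, 20.3% of Rpl22 at 21.2 ± 1.02. Rps27l, induced by p53 in human cells, had 5.27 ± 0.629, 325% of Rps27, and Rpl36al, an autosomal copy of the X-linked Rpl36a with a name outside the rule, had 244% of it. Rpl7l1 had 57.5% of Rpl7. Rpl3l had 1.58% of Rpl3, on 3 to 24 counts per library, and the testis forms were at or near 0: Rpl39l had 0.355% of Rpl39 and Rpl10l was listed at 0. The annotated pseudogenes Rps4l and Rpl6l had 27.95% of Rps4x and 187% of Rpl6; the second pair was chosen after its values were seen. Coding stretches shared with other genes differ within these pairs, 27.1% in Rps27l and 100% in Rps27, so the ratios carry the limit given above. The ratio of Rpl22l1 to Rpl22 was 18.1% in Q140 x Ccdc82-/-, 18.6% in Q140 x Ccdc82+/-, 18.6% in Q140, 17.8% in Ccdc82-/-, 19.2% in Ccdc82+/- and 20.3% in WT.

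Across genotypes the 82 genes stayed close to WT. For 76 of them all 5 other genotype means lay within 10% of the WT mean; the 6 beyond were Rps27, Rpl3l, Rpl23a, Rpl22l1, Rps16 and Rps10, and the farthest, Rps27, was at 85.1% of WT in Ccdc82-/- mice on a count of 50 to 105 per library. Rpl4 stayed between 99.0 and 101% and Rplp0 between 98.4 and 100.1%. Their summed share of counts averaged 0.255 ± 0.00766% in Q140 x Ccdc82-/- (n = 7), 0.261 ± 0.0071% in Q140 x Ccdc82+/-, 0.257 ± 0.00778% in Q140, 0.255 ± 0.00459% in Ccdc82-/-, 0.255 ± 0.00447% in Ccdc82+/- and 0.259 ± 0.00973% in WT (SD, n = 8 each). The groups overlapped. In bulk tissue, fewer cells of a type and less RNA per cell cannot be told apart.

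**Figure D2:**
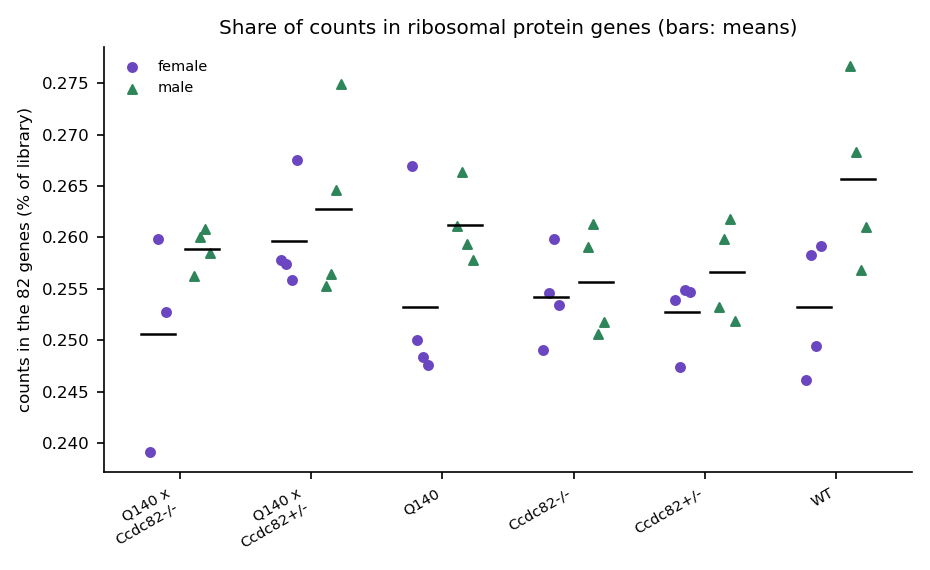
Counts in the 82 genes as a percentage of the library (y axis) for each mouse, by genotype (x axis), circles for females and triangles for males, with bars at the means. All mice lie between 0.239 and 0.277%, and the lowest is female 1 of Q140 x Ccdc82-/-.

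In mice with Q140 against mice without it, averaged over the 3 Ccdc82 genotypes, no ribosomal protein gene was called. The call was an adjusted p under 0.05 in edgeR's quasi-likelihood test with Benjamini-Hochberg adjustment over 19174 genes, of which 0.876% were called; DESeq2 called 0 members as well. At an unadjusted p under 0.05, 1 member was higher and 3 were lower, or 1.22 and 3.66% of the 82, beside 4.43 and 4.75% of all genes. The median log2 difference of the 82 was -0.0067, beside 0.00085 over all genes. For 80 of the 82 the 95% interval of the difference lay within 0.2 log2 units of 0.

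The 3 members with the smallest p went in both directions. Rps10 had 3.39, 3.79 and 4.65 FPKM (lowest, median, highest) in mice with Q140 and 3.43, 3.92 and 4.80 in mice without it, a log2 difference of -0.080 (SE 0.033, adjusted p = 0.392, edgeR). Rpl26, whose protein also binds the p53 mRNA in cultured cells, had 11.0, 12.6 and 13.4 in mice with Q140 and 11.8, 12.6 and 14.1 without, and a log2 difference of -0.048 (SE 0.021, adjusted p = 0.440, edgeR). Rps20 had 7.06, 7.55 and 8.57 in mice with Q140 and 6.88, 7.28 and 8.24 without, and a log2 difference of 0.049 (SE 0.021, adjusted p = 0.444, edgeR). The ranges overlapped for all 3. Among the genes that regulate ribosomal protein mRNAs, Ddit4l, an inhibitor of mTOR signalling, was lower in mice with Q140 (log2 difference -0.25, SE 0.042, adjusted p = 0.000457, edgeR), the only call among 35 genes of that list.

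In Ccdc82-/- mice against mice with both copies, averaged over mice with and without Q140, no member was called, and 0.00522% of all genes were, which is Ccdc82 itself. DESeq2 called 0 members. At an unadjusted p under 0.05, 1 member was higher and 5 were lower, or 1.22 and 6.1% of the 82, beside 2.37 and 2.28% of all genes. The median of the 82 was -0.017, beside -0.00069 over all genes. The smallest p was that of Rpl22l1, with 3.29, 3.87 and 4.38 FPKM in Ccdc82-/- mice and 3.70, 4.05 and 4.90 in mice with both copies, a log2 difference of -0.11 (SE 0.037, adjusted p = 0.9999, edgeR). Rps7 had 15.8, 17.6 and 18.7 in Ccdc82-/- mice and 16.8, 18.2 and 19.9 with both copies (log2 difference -0.068, SE 0.027), and Rps14 had 47.7, 54.9 and 56.6 against 49.2, 58.2 and 62.7 (log2 difference -0.062, SE 0.027). Each pair of ranges overlapped. The 47.7 of Rps14 was female 1 of Q140 x Ccdc82-/-, the mouse with the lowest share of counts in the 82 genes; without it the 3 differences were -0.095, -0.057 and -0.050, still uncalled.

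In Ccdc82+/- mice against mice with both copies, again no member was called, against 0.00522% of all genes, and DESeq2 called 0. At an unadjusted p under 0.05, 2 members were higher and 0 lower, or 2.44 and 0% of the 82, beside 2.81 and 2.51% of all genes. The median of the 82 was -0.0052, beside -0.00051 over all genes. Rps15a had 11.6, 12.6 and 13.4 FPKM in Ccdc82+/- mice and 11.7, 11.99 and 13.2 with both copies (log2 difference 0.033, SE 0.016). Rpl3, which carries part of the peptidyl transferase surroundings, differed by 0.056 (SE 0.027) and Rpl18 by -0.056 (SE 0.029), on the log2 scale; the adjusted p was 0.905 for each of the 3 (edgeR). The ranges overlapped for all 3, and the Rps15a values of mice with both copies lay inside the range of the Ccdc82+/- mice.

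The comparisons of single genotypes gave no call among the 82 genes either. The share of all genes called was 0.0313% for Q140 against WT, 0.0313% for Q140 x Ccdc82+/- against Ccdc82+/-, 0.0209% for Q140 x Ccdc82-/- against Ccdc82-/-, and 0.00522% for Ccdc82+/- against WT, for Ccdc82-/- against WT, for Q140 x Ccdc82+/- against Q140 and for Q140 x Ccdc82-/- against Q140. It was 0 of 19174 genes for the interactions of Q140 with Ccdc82+/- and with Ccdc82-/-, where DESeq2 called 0 members. At an unadjusted p under 0.05 in edgeR, the Ccdc82+/- interaction was above 0 for 4 members (4.88%) and below 0 for 0 members. Over all genes these shares were 1.58 and 1.93%. The Ccdc82-/- interaction was above 0 for 1 member (1.22%) and below 0 for 0 members, beside 1.4 and 1.56% of all genes. Of the single comparisons, Q140 against WT held the smallest p. There, 0 members were higher and 6 were lower at an unadjusted p under 0.05, or 0 and 7.32% of the 82, beside 3.6 and 3.33% of all genes. The smallest p was that of Rpl10a, a large-subunit protein, with 4.97, 5.64 and 5.86 FPKM in Q140 mice and 5.46, 5.95 and 6.83 in WT mice (log2 difference -0.14, SE 0.040, adjusted p = 0.261, edgeR). The ranges overlapped, and Rpl10a was named after its values were seen. By the same unadjusted threshold, Ccdc82+/- and Ccdc82-/- mice each had 0 members higher and 4 lower (4.88%) against WT. Of all genes 1.49 and 1.43% were lower there. Q140 x Ccdc82+/- mice had 0 lower, with 4.88% higher against Ccdc82+/- (all genes 2.22%) and 6.1% against Q140 (2.53%). Q140 x Ccdc82-/- mice had 0 higher and 1.22% lower against Ccdc82-/- (all genes 2.16%) and against Q140 (2.12%).

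The median of the 82 genes was -0.028 for Q140, -0.033 for Ccdc82+/- and -0.027 for Ccdc82-/-, each against WT, and these 3 share the WT mice. Without WT male 1, the mouse with the highest share of counts in the 82 genes, they were -0.023 for Q140, -0.021 for Ccdc82+/- and -0.015 for Ccdc82-/-. It was 0.024 for Q140 x Ccdc82+/- against Ccdc82+/- and 0.025 for Q140 x Ccdc82+/- against Q140, which share the Q140 x Ccdc82+/- mice, and it was -0.011 for Q140 x Ccdc82-/- against Ccdc82-/- and -0.011 against Q140. Without female 1 of Q140 x Ccdc82-/- the last values were 0.0015 and 0.00035. For the interaction of Q140 with Ccdc82+/- the median was 0.055, with 70 genes above 0 and 12 below, beside -0.00039 over all genes. For the interaction with Ccdc82-/- it was 0.019, with 54 above 0 and 28 below, beside -0.0013 over all genes. Both interactions are built from the same mice as the comparisons above. The per-mouse mean of the 82 log2 levels varied by an SD of 0.0323 between mice of the same genotype and sex.

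**Figure D3:**
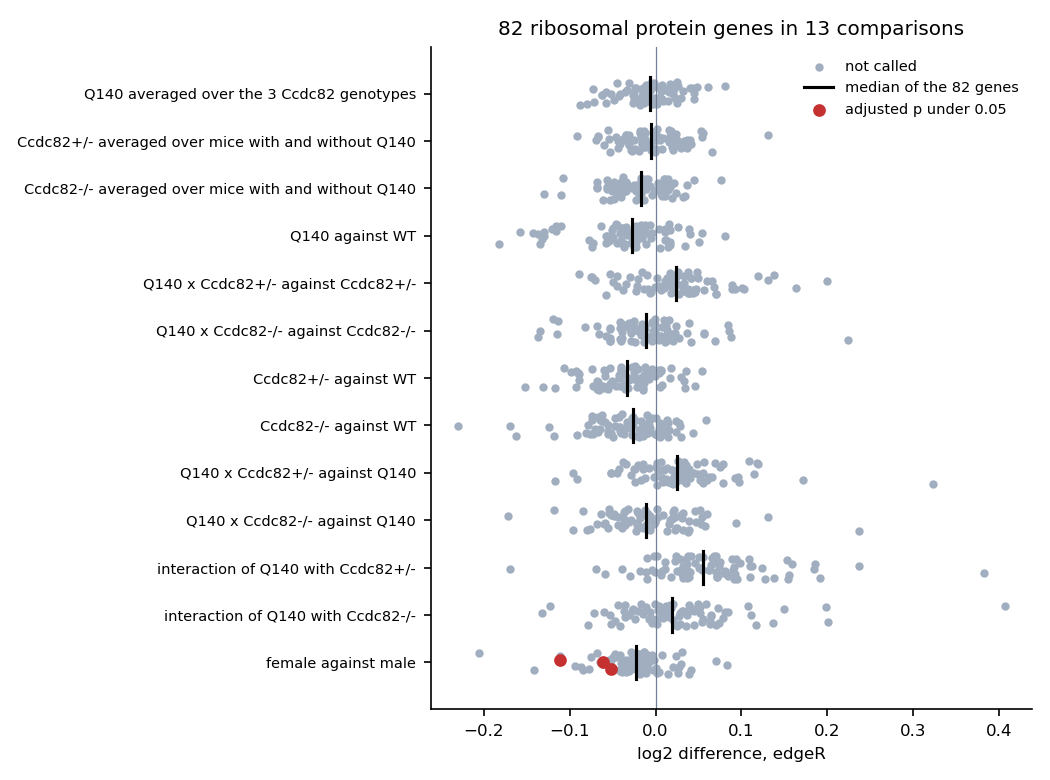
Log2 differences of the 82 genes (x axis) in 13 comparisons (y axis), each point a gene, with a black bar at the median of the 82 and large red points for an adjusted p under 0.05. Only the comparison of females with males holds called genes, Rps15a, Rpl22 and Rpl13, all lower in females.

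Sex was the contrast in which members were called. No number in the library names was shared by a female and a male, so the sexes also differed in these numbers. The meaning of the number is not given, and the consensus correlation of mice sharing it was 0.142 (limma). The edgeR fit took mice that share a number as independent. Rps15a, Rpl22 and Rpl13 were lower in females than in males, while 10.5% of all genes were called, 5.26% lower and 5.26% higher. The 3 calls are 3.66% of the 82, and 0 of the 82 were called higher. At an unadjusted p under 0.05, 16 members (19.5%) were lower and 0 higher in females, beside 12.8% lower and 13.2% higher over all genes. The median of the 82 was -0.023, beside 0.0010. The 3 called genes differed by -3.54% (Rpl22), -4.16% (Rps15a) and -7.41% (Rpl13).

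Rps15a, a small-subunit protein near the decoding platform, had 11.1, 11.9 and 12.8 FPKM (lowest, median, highest) in 23 females and 11.8, 12.7 and 13.4 in 24 males, a log2 difference of -0.061 (SE 0.013, adjusted p = 0.00234, edgeR). Rpl22, an RNA-binding protein on the surface of the large subunit, had 19.5, 20.97 and 21.9 in females and 20.5, 21.7 and 23.2 in males, a log2 difference of -0.052 (SE 0.013, adjusted p = 0.00913, edgeR). Rpl13 had 1.98, 2.33 and 2.67 in females and 1.99, 2.52 and 2.97 in males, a log2 difference of -0.11 (SE 0.037, adjusted p = 0.0410, edgeR). Females and males overlapped for all 3, and the female mean was below the male mean in 6 of 6 genotypes for each. For Rps15a the means were farthest apart in Q140 x Ccdc82-/- mice, at 11.6 in females and 12.97 in males, and closest in Q140 mice, at 12.03 in females and 12.27 in males.

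The other 79 members were not called. Of all 82, the log2 difference was below 0 for 67 and above 0 for 15, beside 9462 below and 9712 above over all genes. The share of counts in the 82 genes averaged 0.254 ± 0.0066% in females (n = 23) and 0.260 ± 0.00651% in males (n = 24), with overlapping ranges. Within mice with Q140 the log2 differences were -0.067 for Rps15a, -0.061 for Rpl22 and -0.055 for Rpl13, and within mice without Q140 they were -0.059, -0.046 and -0.17; neither set of mice, fitted alone, gave a call. Under the alternatives tried, the adjusted p of Rpl13 ran from 0.0252 to 0.667 and it lost its call with plate row as a factor (adjusted p = 0.0792, edgeR) and without WT male 1 (adjusted p = 0.0507, edgeR). The 4 X-linked members, for which females carry 2 gene copies and males 1, did not stand out: Rps4x differed by -0.025 (SE 0.022), Rpl10 by -0.053 (SE 0.036), Rpl36a by 0.030 (SE 0.035) and Rpl39 by -0.029 (SE 0.038), none called.

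Some markers of other cells were called between females and males in the same fit, beside 5.26% of all genes called higher and 5.26% lower, and their part in the difference of the 3 genes was not tested. Of 10 endothelial and pericyte markers 2 were called higher in females, Cldn5 and Flt1, and of 7 markers of oligodendrocyte precursors 2 were, Gpr17 and C1ql1. Of 10 interneuron markers 3 were called lower, among them Gad1 and Gad2, and 1 higher. 1 marker was called higher in each of the lists of 10 astrocyte, 10 oligodendrocyte and 4 cerebellar markers, and 1 of 8 striatal markers was lower. No call was made among 12 markers of excitatory neurons, 10 of microglia, 8 of meningeal fibroblasts and 5 of red blood cells. The same held for 4 markers of the choroid plexus, and other markers of that list are not reported here. The mean log2 level of the precursor markers ranged from 4.34 to 4.67 in females and 4.24 to 4.54 in males, that of the endothelial and pericyte markers from 4.61 to 4.80 in females and 4.57 to 4.84 in males, and that of the interneuron markers from 6.29 to 6.44 in females and 6.31 to 6.44 in males. Mitochondrially encoded transcripts took 4.24 to 5.03% of counts in females and 4.29 to 4.71% in males.

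**Figure D4:**
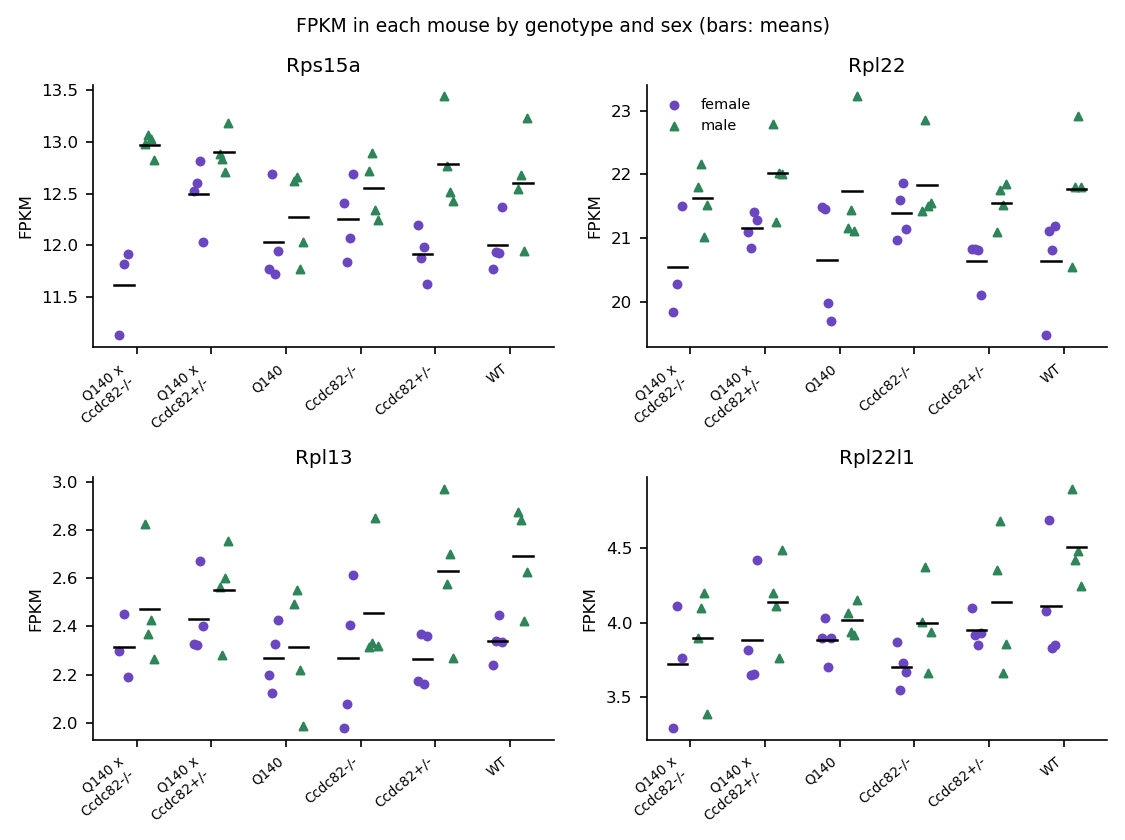
FPKM (y axis) of Rps15a, Rpl22, Rpl13 and Rpl22l1 in each mouse, by genotype (x axis), circles for females and triangles for males, with bars at the means; the y axes do not start at 0. Female means lie below male means in all 6 genotypes for Rps15a, Rpl22 and Rpl13, while over all mice the sexes overlap.

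Promoters are shown for the 3 genes called between females and males, with that of Rps6, a gene not called, set beside them. RefSeq's table on GRCm38.p6 held a promoter, 250 bases before to 50 after the annotated start, for 60 of the 82 genes. The printed windows hold 30 bases before the start and 20 from it on; capitals mark a C followed by at least 4 of C or T that begins within 5 bases of the start, the shape of a 5′ TOP. Rps15a (chr7:118116128-118116177, minus strand) and Rps6 (chr4:86857348-86857397, minus strand) have such a run, and Rpl22 (chr4:152325696-152325745, plus strand) and Rpl13 (chr8:123102320-123102369, plus strand) have none at the start annotated there.
Rps15a: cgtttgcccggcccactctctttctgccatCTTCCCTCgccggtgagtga
Rps6: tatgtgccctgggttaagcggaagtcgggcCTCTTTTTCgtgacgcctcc
Rpl22: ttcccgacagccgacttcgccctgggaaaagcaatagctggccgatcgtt
Rpl13: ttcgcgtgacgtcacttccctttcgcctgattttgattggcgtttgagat

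Such a run was present for 29 of 60 members (48.3%) and for 21.1% of the other 26965 genes with a promoter. The letters CCGGAAG, a binding sequence of ETS factors, stood on either strand of the 300-base promoter in 24 members (40%) and 9.86% of other genes, and AANATGGC, the core of YY1 sites, in 13 members (21.7%) and 6.93% of other genes. TATAAA stood in 7 members (11.7%) and 15.7% of other genes. None of these strings is contained in another. The shares describe annotated starts and carry no test.

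The 82 genes were also compared between mice of the same genotype and sex. The median SD of log2 CPM (counts scaled to library depth) was 0.0962 over the members and 0.118 over 19330 genes that passed the same count rule. Rpl4, with a mean of 17332 counts, had the smallest SD at 0.032, followed by Rpl15 at 0.0384 and Rps15a at 0.0389. Rps15a also had the strongest call between the sexes. That test weighs a difference against the spread between mice, so its small SD and its call are not separate observations. The largest SDs were those of Rpl3l at 0.464, Rps4l at 0.260 and Rps16 at 0.218. Counting alone gives 0.369 for Rpl3l and 0.149 for Rps16, but 0.0815 for Rps4l, the annotated pseudogene, at a mean of 313 counts. The members were set against all genes in the same range of mean count. Under 100 counts the median SD was 0.209 in 6 members and 0.404 in all genes, and from 100 to 300 counts it was 0.143 in 13 members and 0.170 in all genes. It was 0.103 in 29 members and 0.105 in all genes from 300 to 1000 counts, 0.0731 in 20 members and 0.0715 in all genes from 1000 to 3000 counts, and 0.0572 in 14 members and 0.0556 in all genes above 3000. The median SD of the members was thus below that of all genes under 300 counts and close to it above. Counts within a range were not matched. Under 100 counts, Rpl3l had a mean of 15.3 and the other members 73.2 to 93.3, and counting error grows as counts fall. The lower median there therefore does not show that members were steadier than genes of like count.

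**Figure D5:**
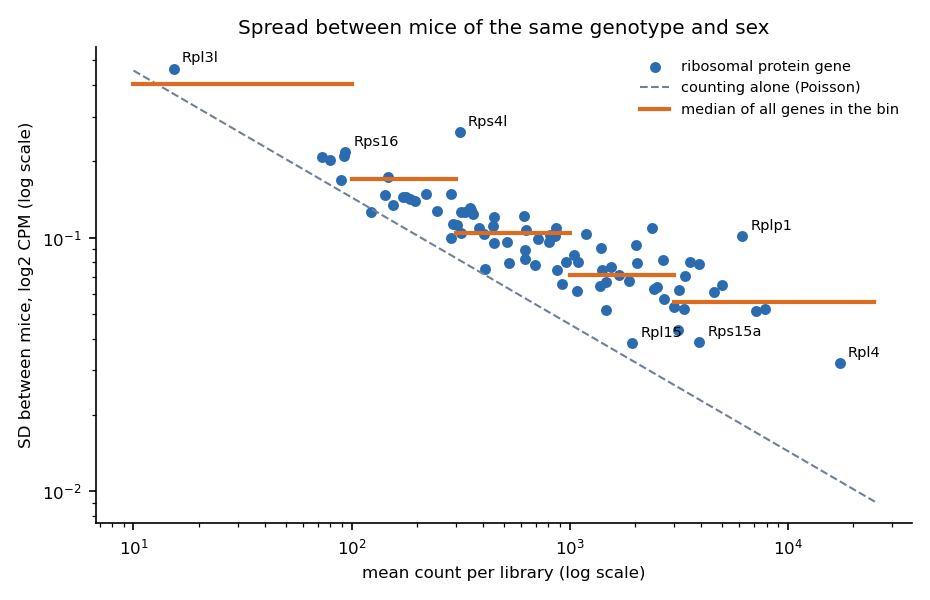
SD of log2 CPM between mice of the same genotype and sex (y axis, log scale) against mean count per library (x axis, log scale) for the 82 genes, with orange bars at the median of all genes in each count range and a dashed line for counting error alone. Most members lie near the bars; Rps4l and Rplp1 lie above, and Rpl4, Rpl15 and Rps15a below.

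Levels of the members were correlated from mouse to mouse, given here as a description over 47 mice whose libraries also differ in depth. After the genotype and sex means were removed, the median pairwise Pearson correlation was 0.129 over 3321 pairs of the 82 genes, 0.279 over 561 pairs of the 34 members with a mean of at least 1000 counts, and -0.00088 over all genes at the count rule. It was 0.0680 for 77 mitochondrial ribosomal protein genes and 0.135 for 38 proteasome subunit genes. Close pairs included Rpl8 with Rps3 (r = 0.836) and Rplp1 with Rpl41 (r = 0.794), each on different chromosomes, and Rps20 with Rpl29 ran opposite (r = -0.402). Among the 34, the median correlation with the others was lowest for Rps15a (0.0236), Rps20 (0.0415) and Rpl22 (0.0601) and highest for Rps15 (0.504).

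Other genes of the translation machinery were read in the same fits. In mice with Q140 against those without, 0 of 5 ribosomal proteins with names outside the rule, 0 of 25 genes of a list of translation factors and other genes taken as 5′ TOP class and 0 of 63 ribosome biogenesis genes were called, at medians of -0.0026, 0.0043 and 0.00074. Of 77 mitochondrial ribosomal protein genes, which serve the separate ribosome of that organelle, 1 was called, Mrpl33, higher in mice with Q140 (log2 difference 0.32, SE 0.025, adjusted p = 2.38e-13, edgeR), and of 38 proteasome genes 0 were. These counts stand beside the 0.876% of all genes called in that comparison. Why Mrpl33 differed was not tested, and its position relative to Htt was not examined here. In Ccdc82-/- and in Ccdc82+/- mice against mice with both copies none of these lists held a call.

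Between females and males, of 63 ribosome biogenesis genes 5 were called lower in females, among them Nop56 and Nop58, core proteins of the particles that methylate rRNA (log2 differences -0.085, SE 0.018, and -0.074, SE 0.019), and 2 higher. Of the 25 genes taken as 5′ TOP class 3 were called lower and 2 higher; the lower ones included Gas5, a noncoding host of small nucleolar RNAs whose transcript carries a 5′ TOP (-0.082, SE 0.019), and Btf3 (-0.097, SE 0.025), and the higher ones the X-linked Eif2s3x, which has a Y-linked partner (0.58, SE 0.021). Of 77 mitochondrial ribosomal protein genes 6 were called higher and 1 lower, at a median of 0.011, and 0 of 38 proteasome genes were called. These counts stand beside 10.5% of all genes called, and differences between the lists were not tested.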

How the data were processed

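The deposited files gave whole-number counts per gene and FPKM for 47 libraries; per the submitters' processing notes STAR 2.7.5c, SAMtools 1.10 and HTSeq 0.12.3 were used with GRCm38 (mm10), and no role is stated for each. The FPKM values are the authors' counts scaled by gene length and library depth, as deposited. Counts were tested with edgeR 4.0.16 (R 4.3.3; TMM, filterByExpr with a minimum count of 10 and total of 15, robust quasi-likelihood fit of 6 genotype means plus sex), with Benjamini-Hochberg adjustment over 19174 genes. DESeq2 1.42.0, limma 3.58.1 on log2(FPKM + 0.1) or log2(FPKM + 1), sva 3.50.0, other scalings and filters, plate position and number blocks were alternatives. The fit was tested on simulated data.

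The named genes were the 5 highest and 5 lowest in WT, the paralog pairs, called members, the 3 of smallest p in each pooled contrast, the extremes of spread, and members with known extra roles. Results of some genes are not reported here. Members and lists were chosen with earlier results of these data known. Promoter sequences are RefSeq's on GRCm38.p6 and coding sequences GENCODE M21. Mice with the same number in their titles were not paired: over 115 pairs their deviations correlated by a median of 0.0151, and 11 pairs exceeded 0.1. The library names also carry a number, the meaning of which is not given. Over 38 pairs that share it the median was 0.0376, and its consensus correlation as a random block in limma was 0.142. Females and males never shared such a number, so the comparison of the sexes is also a comparison between numbers.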

Additional observations from a re-analysis of the deposited data

Results flagged for a closer look

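In groups of 7 or 8 mice, 9 of 105 sets of values held 1 mouse far from the others; chance gives about 1 in 20. In WT, Rpl11 had 2.50 FPKM in male 1 (others 1.99 to 2.23), Rps19 had 4.13 in male 1 (others 3.16 to 3.46), Rpl24 had 2.28 in male 3 (others 1.55 to 1.89), and Rpl39l had 0.0723 in male 2 (others 0 to 0.0239). Rps10 had 4.31 FPKM in male 4 of Q140 (others 3.46 to 3.82), and Rpl18 had 3.24 in male 3 of Ccdc82+/- (others 2.82 to 2.99). In Q140 x Ccdc82-/-, Rpl13 had 2.83 FPKM in male 1 (others 2.19 to 2.45). Female 1 of the same genotype was low for Rps14, at 47.7 FPKM (others 53.5 to 56.1), and for the share of counts in the 82 genes, at 0.239% (others 0.253 to 0.261%).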

How the results depend on the processing

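Alternatives were tried for the 12 genotype comparisons, 199 results in total when each comparison under each alternative is counted. In all 199, 0 of the 82 genes were called. The replicate block on the title number was among the alternatives, and under it 0 members were called. Between females and males 3 genes were called; the number was 7 with library totals only, 5 with 2 surrogate variables, 5 with plate column and row as factors (added after seeing the data), 9 with limma on log2(FPKM + 0.1), 9 with limma on log2(FPKM + 1) and 5 with DESeq2. It was 0 in mice with Q140 alone and 0 in mice without Q140 alone, fits with fewer mice that were also added after seeing the data. Rps15a and Rpl22 were among the 5 with surrogate variables and with both plate factors, and Rpl13 was not. Without female 1 of Q140 x Ccdc82-/- the same 3 genes were called, and without WT male 1 the calls were 2, Rps15a and Rpl22; both mice were left out after seeing the data. No direction of a called gene reversed. Of the differences of single named members, 183 stayed on their side of the threshold and 12 no longer passed it; the cause was not tested. Members with under 100 counts, such as Rpl3l and Rps27, are limited by depth.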
